A study of Caenorhabditis elegans with 5 samples.

Results

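The hypergravity array was set directly against the clinorotation array. These are 2 of the 5 arrays of a study of the nematode Caenorhabditis elegans, chosen by their sample titles, and each carries RNA from 1 group of worms. All groups were mixed-stage N2 Bristol wild-type worms grown in liquid CeMM, a chemically defined axenic medium. The hypergravity group was kept under raised gravity on the ground, and the labels give its strength both as 3 G and as 10 G, so no value is assigned here. The clinorotation group was turned so that the direction of gravity varied randomly. The other arrays carry a 1 G ground control from the operation site, a 1 G ground control from the Tsukuba space center, and worms flown in space. The site at which the clinorotation and hypergravity worms were grown is not given in the labels. Each array has RNA pooled from 100000 worms, so worms are not replicates, and the comparison between hypergravity and clinorotation has 1 array on each side.

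Clinorotation keeps an animal under the Earth's pull but turns it, so that no direction of pull persists, and it is used as a ground model of weightlessness. Hypergravity, usually made by centrifugation, adds a steady load. In C. elegans body wall muscle and cuticle carry mechanical load while neurons sense touch and movement. A mixed-stage culture holds larvae and adults together, so its RNA also carries the stage make-up of the culture: yolk proteins come from adult hermaphrodites, major sperm proteins from worms that make sperm, and most maternal RNAs from the adult germ line. In such whole-worm RNA, fewer cells of a type and less RNA per cell cannot be told apart.

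The deposited intensities differed in brightness, with trimmed means of 177 for clinorotation, 192 for hypergravity and 138.9 to 217 over all 5 arrays. They were therefore brought to 1 distribution by quantile scaling. Every signal below 24.9 (the 40th percentile after scaling) was set to that floor, because the files carry no detection calls. Signals below are these scaled values in arbitrary units, and differences are log2 of hypergravity over clinorotation unless another pair of arrays is named. Of 17118 genes, 10622 lay above the floor on at least 1 of the arrays compared. Only genes of this set are counted. With 1 array a treatment, a gene counts as apart from 2-fold upwards, a rule of size and not a test.

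Of the 10622 genes, 44 (0.414%) read at least 2-fold higher in hypergravity and 1.12% at least 2-fold lower, together 163 genes (1.53%). Counted at any size the directions were nearly balanced, with 5391 genes (50.8%) higher and 5218 (49.1%) lower, and a median difference of 0.01. The higher genes were 26.99% of the 163. On the deposited signals without scaling, where the median of all genes moved to 0.11, they were 47.2% of the genes apart, 85 higher and 95 lower. At 1.5-fold the counts were 480 higher and 730 lower, at 3-fold 3 and 12, and at 4-fold 1 and 4. Genes at the edge of the rule were T22B7.3, 2.001-fold lower and just inside, and ugt-40, 1.99997-fold lower and just outside. With the genes cut by mean signal into 10 bins of equal size, the SD of the difference ran from 0.27 to 0.53. The bin from 31.1 to 45.7 held 17 of the higher and 29 of the lower genes, and the brightest bin 0 and 2.

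**Figure D1:**
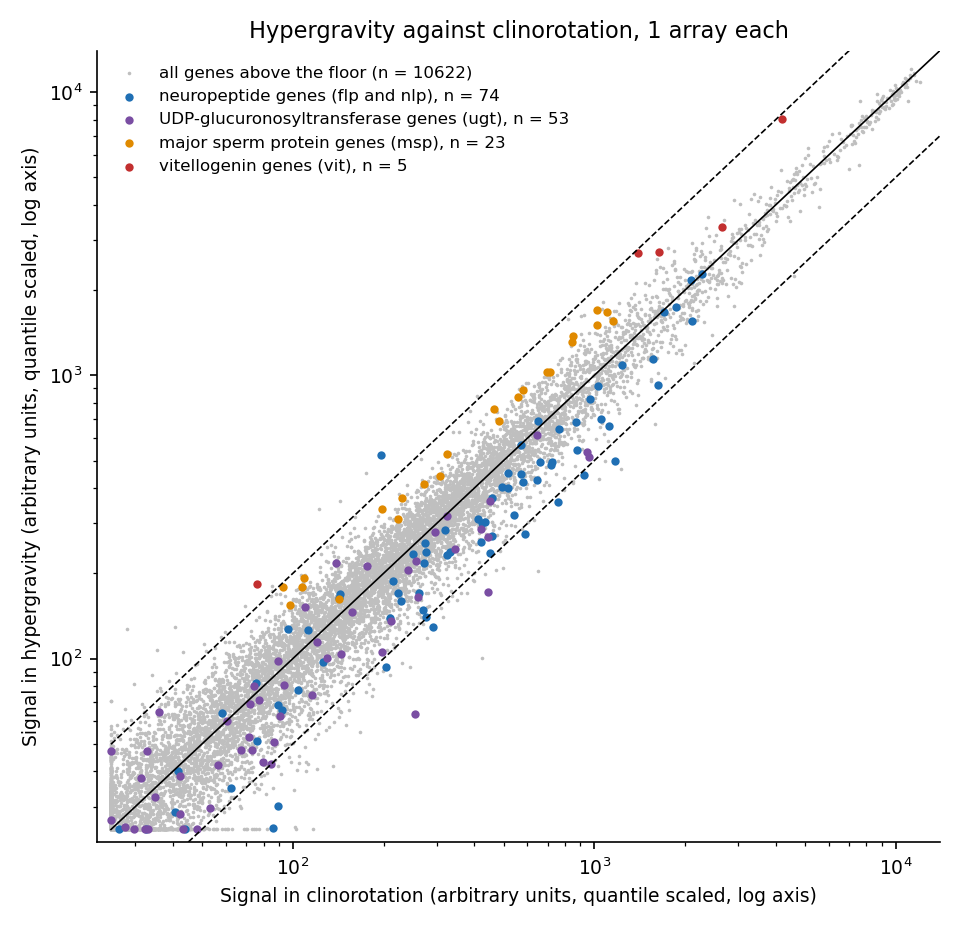
Scaled signal of each gene on the clinorotation array (x axis) against the hypergravity array (y axis), both in arbitrary units on log axes, with 1 point a gene. Most genes lie near the diagonal; of the 163 genes at least 2-fold from it, 44 lie above and the rest below.

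The same count over the other pairs of arrays gives the scale of 163. The ground controls were 888 genes apart, 474 of them higher at the operation site. Clinorotation was 56 genes from the Tsukuba control, fewer than any of the other 9 pairs of arrays. Hypergravity was 235 genes from the Tsukuba control, 75 higher (0.704%) and 160 lower (1.5%). From the operation-site control, clinorotation was 916 genes apart, 3.76% of genes higher and 4.68% lower, and hypergravity 1124 genes, 3.88% higher and 6.4% lower. The hypergravity and clinorotation arrays were thus closer to each other and to the Tsukuba control than the controls were to each other.

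**Figure D2:**
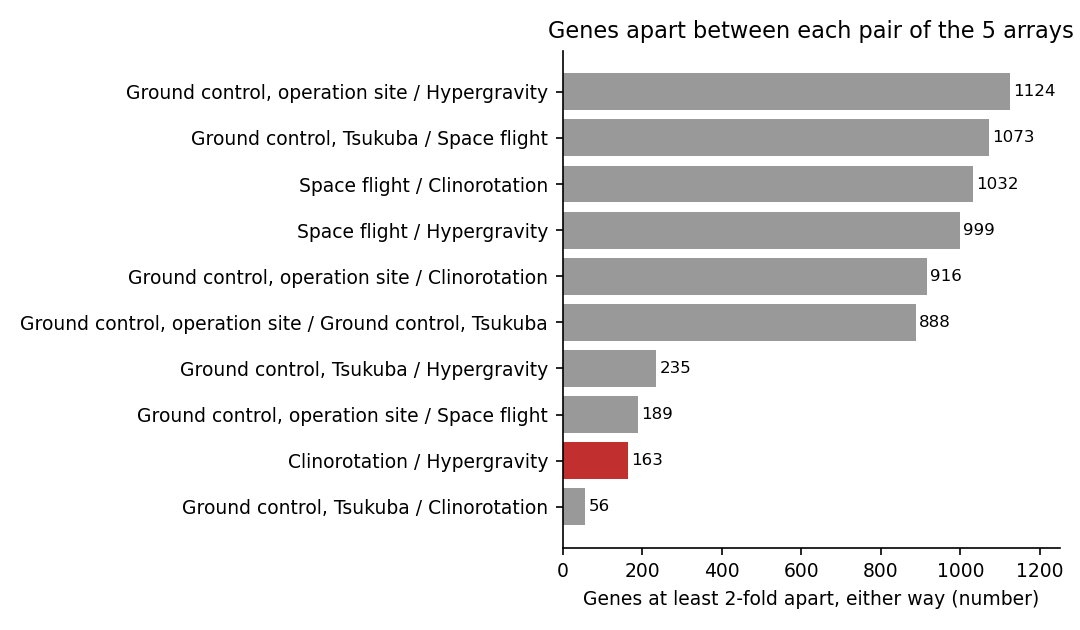
Number of genes at least 2-fold apart for each of the 10 pairs of the 5 arrays. Clinorotation and the Tsukuba control had 56 such genes, hypergravity and clinorotation 163, and the ground controls 888.

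A fit across all genes called no difference between hypergravity and clinorotation. With limma, the ground controls as 1 group and 10076 genes, 0 genes (0%) had an adjusted p under 0.05 for hypergravity minus clinorotation, and the smallest adjusted p was 1. At an unadjusted p under 0.05 there were 66 genes, against 503.8 that the threshold alone would give. The only residual degree of freedom is the difference between the controls, which come from separate sites and were 888 genes apart, and the median standard error was 0.39 on the log2 scale. No gene or group described here is therefore a called change: each is a difference between 1 array and another. Standard errors quoted for single genes rest on the controls, and measure no spread within hypergravity or clinorotation.

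Neuropeptide genes read lower in hypergravity than in clinorotation. FMRFamide-like peptides, encoded by the flp genes, are short secreted peptides through which neurons signal to muscle and to one another. Of 25 flp genes on the array 23 lay above the floor, 21 read lower and 2 higher. Of the 23, 4 were at least 2-fold lower and 0 at least 2-fold higher, against 1.12% and 0.414% of all genes. The flp median was -0.59, against 0.01 over all genes. It was the lowest of the 61 gene and marker lists with at least 5 measured members. Some of these lists overlap, and they were chosen with earlier results of these data known, so the rank is no test. Hypergravity lay below both ground controls for 20 of the 23, and clinorotation for 3, against 30.7% and 25.9% of all genes. The summed flp signal was 12471 in hypergravity and 17913 in clinorotation, with 21029.8 in the operation-site control, 16460.1 in the Tsukuba control and 16435 in space flight.

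flp-18, whose peptides act on NPR-family receptors, read 1175 in clinorotation and 497 in hypergravity, with 1398 and 1025 in the controls (operation site, then Tsukuba) and 876 in space flight. Hypergravity was the lowest of the 5 arrays, a difference of -1.24 with a limma standard error of 0.32. flp-11, which encodes peptides released by the sleep neuron RIS, read 924 in clinorotation, 444 in hypergravity, 1004 and 845 in the controls and 793 in space flight, a difference of -1.06. The order was the same as for flp-18, with hypergravity below the other 4 arrays. flp-19 read 589 in clinorotation and 275 in hypergravity, with 707 and 497 in the controls and 434 in space flight, and its other probe set gave -0.87 beside the -1.102 of the first. flp-32 read 292 in clinorotation and 129 in hypergravity, but its operation-site control (134) and space flight (128) were as low as hypergravity, and only the Tsukuba control (245) was near clinorotation.

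The neuropeptide-like proteins, encoded by the nlp genes, are a mixed group of secreted peptide precursors, some neuronal and some made in the hypodermis. Of 51 above the floor, 4 read at least 2-fold lower and 1 at least 2-fold higher, against 1.12% and 0.414% of all genes. At any size 43 of the 51 read lower and 8 higher, with a median of -0.38. Hypergravity lay below both controls for 40 of them and clinorotation for 20, against 30.7% and 25.9% of all genes. nlp-11 read 761 in clinorotation and 356 in hypergravity, with 1009 and 646 in the controls and 702 in space flight, a difference of -1.09, and hypergravity was again the lowest array. nlp-2 (89.1 in clinorotation, 30.1 in hypergravity) and nlp-91 (85.9 and 25.2) gave -1.56 and -1.77, but their hypergravity signals lay close to the floor. nlp-39 went the other way: it read 195 in clinorotation and 524 in hypergravity, with 54.9 and 199 in the controls and 177 in space flight, a difference of 1.42. The controls differed for this gene by more than hypergravity differed from clinorotation.

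The machinery that matures and releases peptides and transmitters read lower too. egl-3, the proprotein convertase that cuts neuropeptide precursors, read 2908 in clinorotation and 1764 in hypergravity, with 3044 and 2859.6 in the controls and 2149 in space flight. The difference was -0.72 (limma standard error 0.18), and its other probe set gave -0.22. Of 18 synaptic vesicle release genes above the floor, 17 read lower and 1 higher, with a median of -0.43. Of the 18, 2 read at least 2-fold lower and 0 at least 2-fold higher, against 1.12% and 0.414% of all genes. snt-1, the calcium sensor synaptotagmin, read 158 in clinorotation and 75.8 in hypergravity, with 171 and 216 in the controls and 129 in space flight. Both of its probe sets gave about the same difference, -1.06 and -1.04. ric-4, the SNAP-25 part of the fusion complex, read 487 in clinorotation and 241 in hypergravity, with 577 and 420.3 in the controls and 330.4 in space flight, a difference of -1.02 (-0.85 by its other probe set). cpx-1, a complexin that clamps that complex, gave -0.93.

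Of the 15 pan-neuronal markers 13 lay above the floor, and 9 of these are also in the synaptic list, so they are not separate evidence. Of the 13, 11 read lower and 2 higher, with a median of -0.36. Their summed signal was 10816 in clinorotation and 9466 in hypergravity, with 11076 and 10519.5 in the controls and 9701 in space flight. The exceptions were unc-119 (64.3 in clinorotation, 101 in hypergravity, 0.65) and the beta-tubulin tbb-1 (2115 and 2932, 0.47). Over the flp, nlp, synaptic and pan-neuronal lists together there were 96 genes, of which 83 read lower at any size, 10 at least 2-fold lower and 1 at least 2-fold higher. Of all 10622 genes, 49.1% read lower at any size, 1.12% at least 2-fold lower and 0.414% at least 2-fold higher. Outside these lists, of 31 genes of glutamate, acetylcholine and GABA signalling 20 read lower and 11 higher, with a median of -0.09. Receptor families read mostly lower: 23 of 29 npr genes (neuropeptide receptors, median -0.25) and 8 of 9 frpr genes (FMRFamide peptide receptor family, -0.21). Beside them, 7 of 8 gpa genes (G protein alpha subunits) and 5 of 8 dmsr genes (peptide receptors) read lower, with medians of -0.31 and -0.35.

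**Figure D3:**
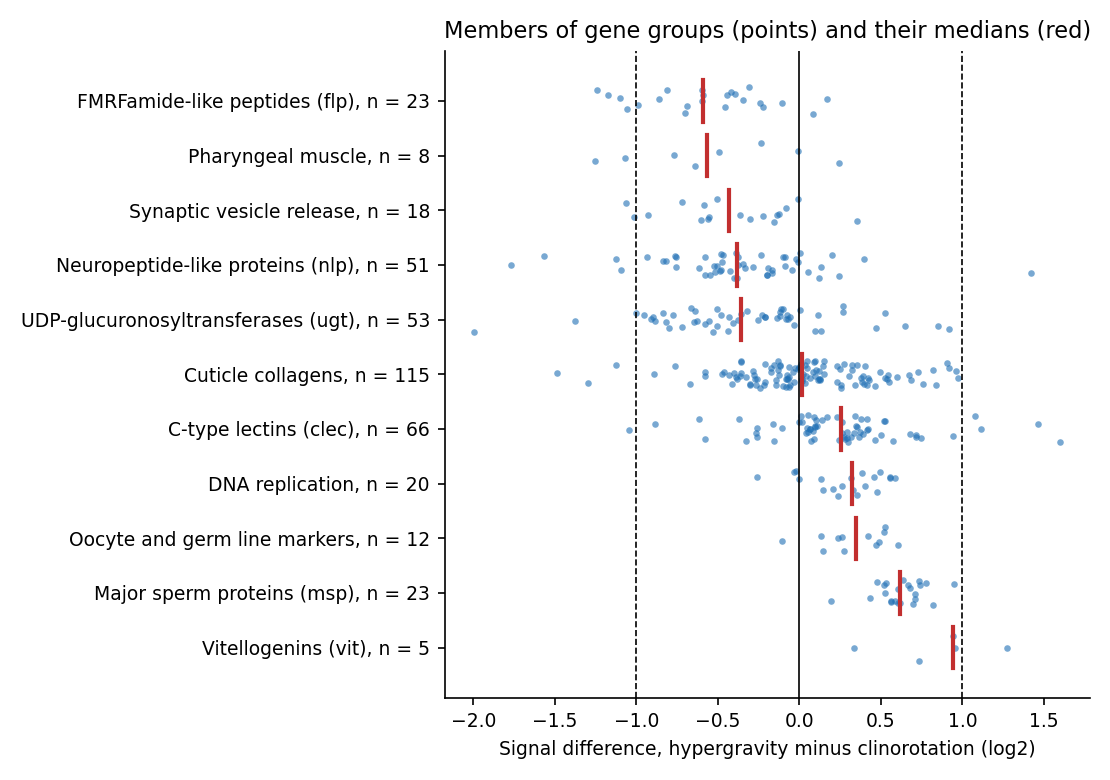
Difference of hypergravity minus clinorotation (x axis, log2) for each gene above the floor in 11 gene groups, with 1 point a gene, red bars at the group medians and dashed lines at 2-fold. The flp genes have a median of -0.59 and the vitellogenins of 0.94, while the cuticle collagens are spread about 0.01.

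Pharyngeal muscle genes read mostly lower in hypergravity, while the median of body wall muscle genes was near 0. The pharynx is the pumping organ through which the worm feeds, and it has its own myosins. Of 8 pharyngeal muscle genes above the floor 7 read lower, 2 at least 2-fold, against 49.1% and 1.12% of all genes. The median of the 8 was -0.56. tni-4, the pharyngeal troponin I, read 498 in clinorotation and 209 in hypergravity, with 732 and 292 in the controls and 378 in space flight, a difference of -1.26. myo-2, a pharyngeal myosin heavy chain, read 397 and 189, with 675 and 208 in the controls and 212 in space flight, a difference of -1.07 with a limma standard error of 0.96. The controls differed more than the treatments did for this list: the operation-site control lay above the Tsukuba control by a median of 1.03, and hypergravity below the Tsukuba control by 0.10 only. myo-1, another pharyngeal myosin, gave -0.64, and -0.99 by its other probe set. The marker list that joins pharyngeal muscle with gland genes was mixed, with 4 higher and 6 lower, 1 at least 2-fold each way and a median of -0.23. Of the 8 phat genes of the pharyngeal gland 6 read higher, with a median of 0.13.

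Of 20 body wall muscle filament genes 15 read lower and 5 higher, 0 by 2-fold either way, with a median of -0.07. The body wall myosin heavy chain unc-54 read 1929 in clinorotation and 2107 in hypergravity, with 2208 and 2044 in the controls and 1673 in space flight. myo-3, the other body wall myosin heavy chain, read 241 and 306, with 306 and 333 in the controls and 241 in space flight, a difference of 0.35. unc-15, the paramyosin of thick filaments, read 2431 and 2385, with 2730.0 and 2706 in the controls and 2212 in space flight. For each of these 3 genes hypergravity and clinorotation were under 1.5-fold apart. Genes of dense bodies and muscle attachment, through which the filaments are anchored, were as close, with 8 of 18 higher, 10 lower and a median of -0.02.

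Enzymes that attach sugar to small molecules read lower. Of 53 UDP-glucuronosyltransferase (ugt) genes above the floor 42 read lower and 11 higher, 2 at least 2-fold lower and 0 at least 2-fold higher, with a median of -0.36. Over all genes 49.1% read lower, 1.12% at least 2-fold lower and 0.414% at least 2-fold higher. ugt-8 read 254 in clinorotation and 63.7 in hypergravity, with 227 and 222 in the controls and 107 in space flight. The difference of -1.996 (limma standard error 0.34) was among the widest of the genes measured on both arrays, and the controls lay close to clinorotation. ugt-66 read 444 and 171, with 433 and 467 in the controls and 241 in space flight, a difference of -1.37, again with hypergravity lowest, space flight next and the controls close to clinorotation. For comparison, cytochrome P450 genes had 23 higher and 25 lower with a median of -0.01, and glutathione S-transferases 6 and 21 with a median of -0.18.

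Yolk genes read higher in hypergravity. Vitellogenins are yolk proteins that the adult intestine makes and the oocyte takes up. All 5 on the array read higher, 1 at least 2-fold, against 50.8% and 0.414% of all genes. The vitellogenin median was 0.94, the highest of the 61 lists, a rank that is likewise no test. Hypergravity lay above both controls for all 5, and clinorotation below both for 4, against 34.7% and 25.9% of all genes. vit-6 read 4181 in clinorotation and 8025 in hypergravity, with 5271 and 4250.2 in the controls and 5242 in space flight. The difference was 0.94 (limma standard error 0.22), and 0.68 by its other probe set. vit-5 read 1392 and 2699, with 1503 and 1541 in the controls and 1321 in space flight, a difference of 0.96. For both genes hypergravity was the highest array and the other 4 lay within 1.5-fold of each other. vit-1, a dimmer member, read 76.2 and 184, with 82.7 and 118.9 in the controls and 166 in space flight, a difference of 1.27. vit-2 gave 0.33, and vit-4 gave 0.73, with 0.72 and 1.42 by its other probe sets. The probe set that gave 1.42 lay at the floor in the operation-site control and read 203 in the Tsukuba control. The chosen vit-4 probe set read 1753 and 1797 there, so the value of 1.42 is weak support. Of the 5 probe sets that stand for the vitellogenins 3 may bind several transcripts, so the members are not fully separate.

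Other marks of adult and germ line RNA read higher as well. The adult cuticle collagen col-19 read 134 in clinorotation and 251 in hypergravity, with 332 and 123 in the controls and 278 in space flight, a difference of 0.91. Hypergravity lay between the controls for col-19, and the operation-site control lay above the Tsukuba control by 1.44. With the vitellogenins col-19 makes up the 6 adult markers, all higher in hypergravity than in clinorotation. Their summed signal was 17234 against 10078 in clinorotation and 10120.2 to 11727 in the controls and space flight. The vitellogenins hold 16982 of the 17234, so the adult markers are not separate evidence. Of 12 oocyte and germ line markers 11 read higher, 0 by 2-fold, with a median of 0.35 and a summed signal of 16206 against 12139, beside 12658 and 10578 in the controls and 15782 in space flight. cey-2, a germ line Y-box RNA-binding protein, read 2379 and 3621, with 2283 and 2234 in the controls and 3231 in space flight, a difference of 0.61. oma-2, needed for oocyte maturation, gave 0.52, spn-4, a maternal RNA-binding protein, gave 0.52, and htp-1, a part of the meiotic chromosome axis, gave 0.49.

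Genes of DNA replication, which in adults runs mainly in the germ line, followed the same direction: of 20, 16 read higher, 3 lower and 0 by 2-fold, with a median of 0.32. mcm-2, a subunit of the replicative helicase, read 428 in clinorotation and 629 in hypergravity, with 452 and 411 in the controls and 526 in space flight. psf-2 of the GINS complex gave 0.59 and rpa-2, a single-strand DNA binding subunit, 0.50. Hypergravity lay above both controls for 19 of the 20 genes and clinorotation for 9, against 34.7% and 29.2% of all genes. Histones, variant and linker histones included, read higher in 27 of 32 (median 0.23). Of these 32 probe sets 22 may bind several transcripts, so the members are not fully separate. The SR splicing factors (rsp) read higher in 7 of 8 (0.35). The rbm RNA-binding genes did so in 11 of 13 (0.31) and the cdk kinases in 6 of 10 (0.39). rsp-4 read 845 in clinorotation and 1175 in hypergravity, with 781 and 772 in the controls and 922 in space flight. cdk-1, the mitotic kinase, read 688 and 944, with 616 and 640.0 in the controls and 799 in space flight. For both genes hypergravity was the highest array and space flight the next. Proteasome subunits read higher in 29 of 33, with a median of 0.17.

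The major sperm proteins, which drive sperm crawling and signal to the oocyte, read higher in hypergravity for all 23 genes above the floor, 0 by 2-fold, with a median of 0.62 and a range from 0.20 to 0.95. Their summed signal was 11587 in clinorotation and 17630.1 in hypergravity, but 55004 in the operation-site control, 14961 in the Tsukuba control and 55648 in space flight. Clinorotation lay under the Tsukuba control and hypergravity over it, both far below the other arrays, and the control arrays differed by a median of 1.99. All 23 probe sets may bind several transcripts of this near-identical family, so the 23 values are not separate measurements. gsp-4, a sperm protein phosphatase, read 36.5 and 76.7, with 204 and 56.9 in the controls and 233 in space flight. It was the 1 gene at least 2-fold higher among 33 genes of sperm and spermatogenesis, of which 26 read higher and 7 lower, with a median of 0.28. The 1 at least 2-fold lower was spe-4, a presenilin-family protein of sperm formation, which read 67.2 and 29.8, with 70.9 and 65.4 in the controls and 81.0 in space flight. Of 9 embryo markers 4 lay above the floor, with a summed signal of 251 in clinorotation and 324 in hypergravity; 2 read higher and 2 lower. Of 11 male markers 1 lay above the floor. The part of stage make-up in the neuronal, pharyngeal and yolk differences was not tested.

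**Figure D4:**
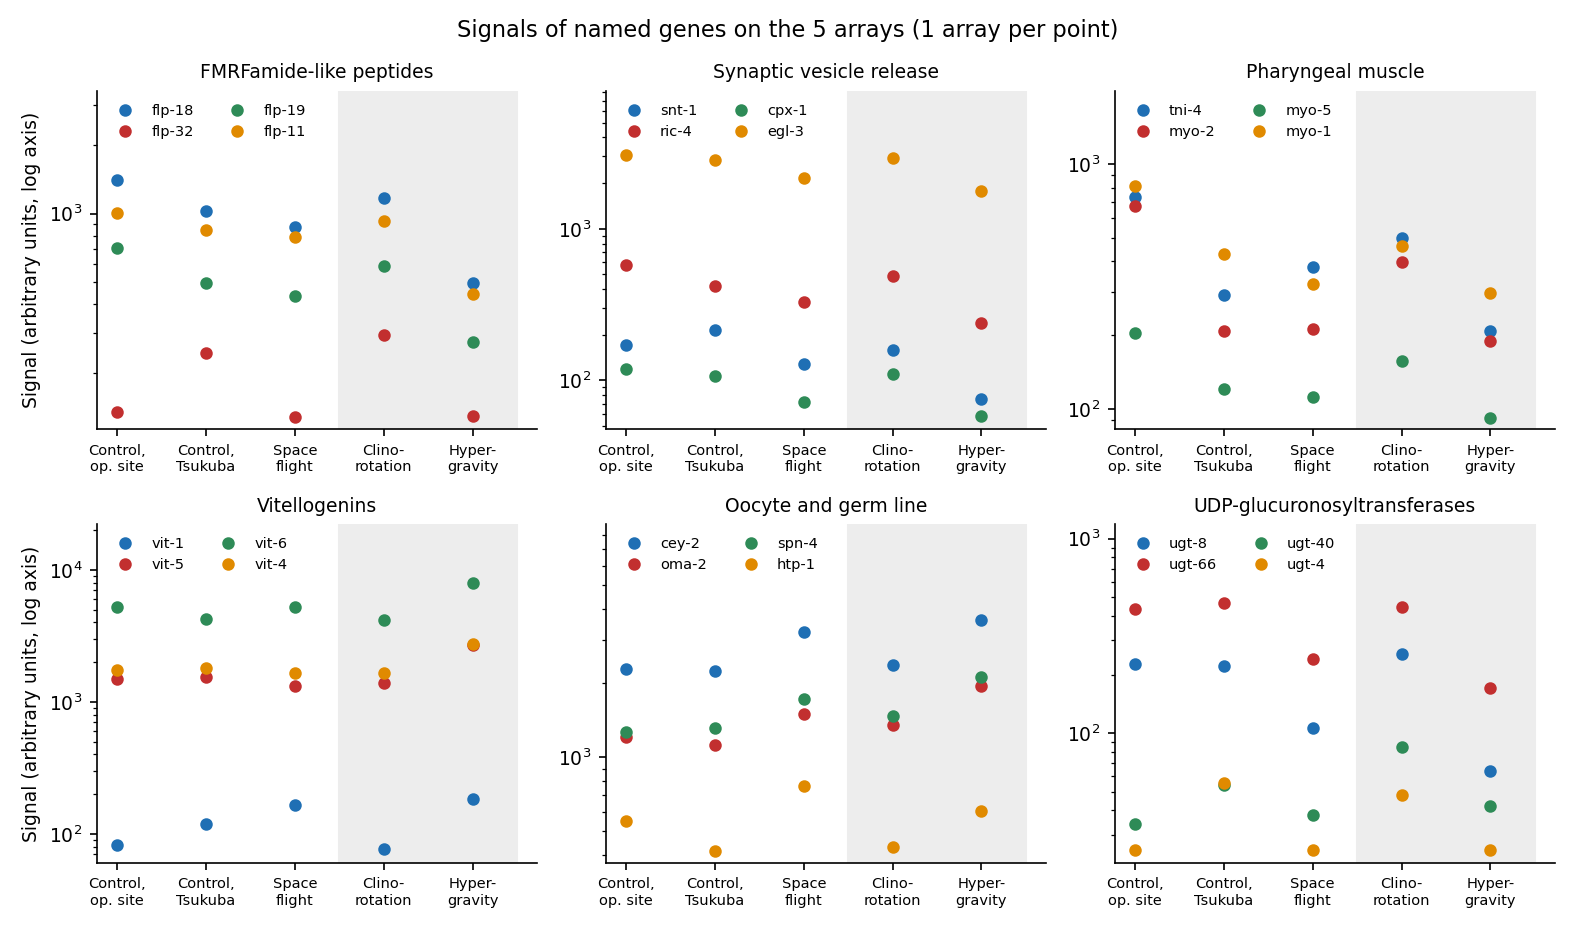
Scaled signal (y axis, arbitrary units, log axis) of 4 genes in each of 6 groups on the 5 arrays (x axis), with 1 array a point and the arrays compared on a grey ground. flp-18 reads 497 in hypergravity and at least 876 on the other 4 arrays, while vit-6 reads 8025 in hypergravity and at most 5271 on the others.

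Cuticle collagens were spread about 0. Of 115 above the floor 59 read higher and 56 lower, with a median of 0.01. There were 3 at least 2-fold lower and 0 at least 2-fold higher, against 1.12% and 0.414% of all genes. These 3 include sqt-2 and dpy-5, whose products shape the body cuticle. dpy-5 read 351 in clinorotation and 161 in hypergravity, with 591 and 389 in the controls and 309 in space flight, a difference of -1.12. sqt-2 read 105 and 42.8, with 151 and 127 in the controls and 105 in space flight, a difference of -1.297. For both genes hypergravity was the lowest array and clinorotation lay under both controls. The remaining member, col-63, read 69.9 in clinorotation and lay at the floor in hypergravity and in the Tsukuba control, but at 264 in the operation-site control.

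C-type lectin-like genes (clec), a large family of secreted and membrane proteins of which many respond to bacteria, read mostly higher: 53 of 66 above the floor, with 4 at least 2-fold higher, 1 at least 2-fold lower and a median of 0.25. clec-52 read 122.1 in clinorotation and 337 in hypergravity, with the operation-site control at the floor, 66.8 in the Tsukuba control and 40.9 in space flight. Both treatments lay above all the other arrays, and the difference between them was 1.46. clec-18 read 35.3 and 107, with 85.2 and 63 in the controls and 315 in space flight, a difference of 1.60. clec-85 read 85.4 and 180.5, with 257 and 117 in the controls and 336 in space flight, so that hypergravity lay between the controls. The array carries 220 clec genes, so most of the family could not be read above the floor.

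The heat shock genes hsp-16.2 and hsp-70 read nearly the same in hypergravity and clinorotation, while other pairs of arrays lay far apart. hsp-16.2, a small heat shock protein, read 5608 in clinorotation and 5589 in hypergravity, with 269.5 in the operation-site control, 6148 in the Tsukuba control and 563 in space flight. hsp-70, an inducible chaperone, read 8549 and 7877, with 1769.7 and 8000.3 in the controls and 2317 in space flight. Both treatments and the Tsukuba control were high and the remaining arrays low. Of the 12 small and inducible heat shock genes above the floor 5 read higher and 7 lower, with a median of -0.005 and a range from -0.38 to 0.95, and the sign for hsp-16.2, hsp-16.41 and hsp-70 turned with the scaling. Over 60 chaperones the split was 30 and 30.

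The gene with the widest difference on the higher side was F35E8.7, which read 28.1 in clinorotation and 127 in hypergravity, with 125 and 43.2 in the controls and 471 in space flight. The difference was 2.17, but the operation-site control was close to hypergravity, and the value ran from 0.53 with the floor at the 60th percentile to 2.37. Its neighbour on chromosome V, F35E8.6, read 43 and 105, with 263 and 27.7 in the controls and 764 in space flight. phat-3, made in the pharyngeal gland, read 29.8 and 81.6, with 127 and 35.3 in the controls and 99 in space flight. Hypergravity lay at the level of the higher control for F35E8.7 and between the controls for F35E8.6 and phat-3.

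cyp-33A1, a cytochrome P450, read 144 in clinorotation and 359 in hypergravity, with 175 and 135 in the controls and 130.4 in space flight, a difference of 1.32. Here the 4 other arrays lay within 1.5-fold of each other and hypergravity above all of them. C18B2.3 read 175 and 452, with 152 and 259 in the controls and 311 in space flight, a difference of 1.37, and mct-5 read 69.1 and 153, with 98 and 101 in the controls and 131 in space flight. W06A11.1 gave 1.26, but its other probe set gave 0.14. At the floor in clinorotation were meg-3, which encodes a germ granule protein (70.7 in hypergravity), abf-1, related to antibacterial factors (57.9), and end-1, a GATA factor of the endoderm (56.4). They were at least 2.84-fold, 2.32-fold and 2.26-fold higher in hypergravity.

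On the lower side, dach-1 read 102 in clinorotation and 25.4 in hypergravity, with 69.6 and 103 in the controls and 29.8 in space flight, a difference of -2.002. F14F9.2 read 652 and 204, with 519 and 595 in the controls and 513 in space flight, a difference of -1.68. For F14F9.2, as for ugt-8, the controls lay close to clinorotation and hypergravity stood below the rest. hmit-1.2, a transporter that carries myo-inositol together with protons, read 120.2 and 40.8, with 105 and 121 in the controls and 47.6 in space flight, a difference of -1.56. dach-1 and hmit-1.2 had space flight near hypergravity and both controls higher. The hypergravity signal of dach-1 lay close to the floor, and with the floor at the 60th percentile the differences were -0.21 for dach-1 and -0.45 for hmit-1.2.

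F01F1.14 read 425 in clinorotation and 101 in hypergravity, with 91.8 and 391 in the controls and 82.3 in space flight, a difference of -2.08. lips-15, related to lipases, read 244 and 93.7, with 58.7 and 226 in the controls and 76.2 in space flight. scl-11, a secreted SCP-family protein, read 1226 and 466, with 685 and 1298 in the controls and 280.3 in space flight. For these 3 genes clinorotation lay close to the Tsukuba control. Hypergravity lay near the operation-site control for F01F1.14, between the controls for lips-15 and below both for scl-11. At the floor in hypergravity were nssp-72 (116 in clinorotation, at least 4.67-fold lower in hypergravity) and tbc-8, a regulator of Rab GTPases (75.7, at least 3.04-fold lower).

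**Figure D5:**
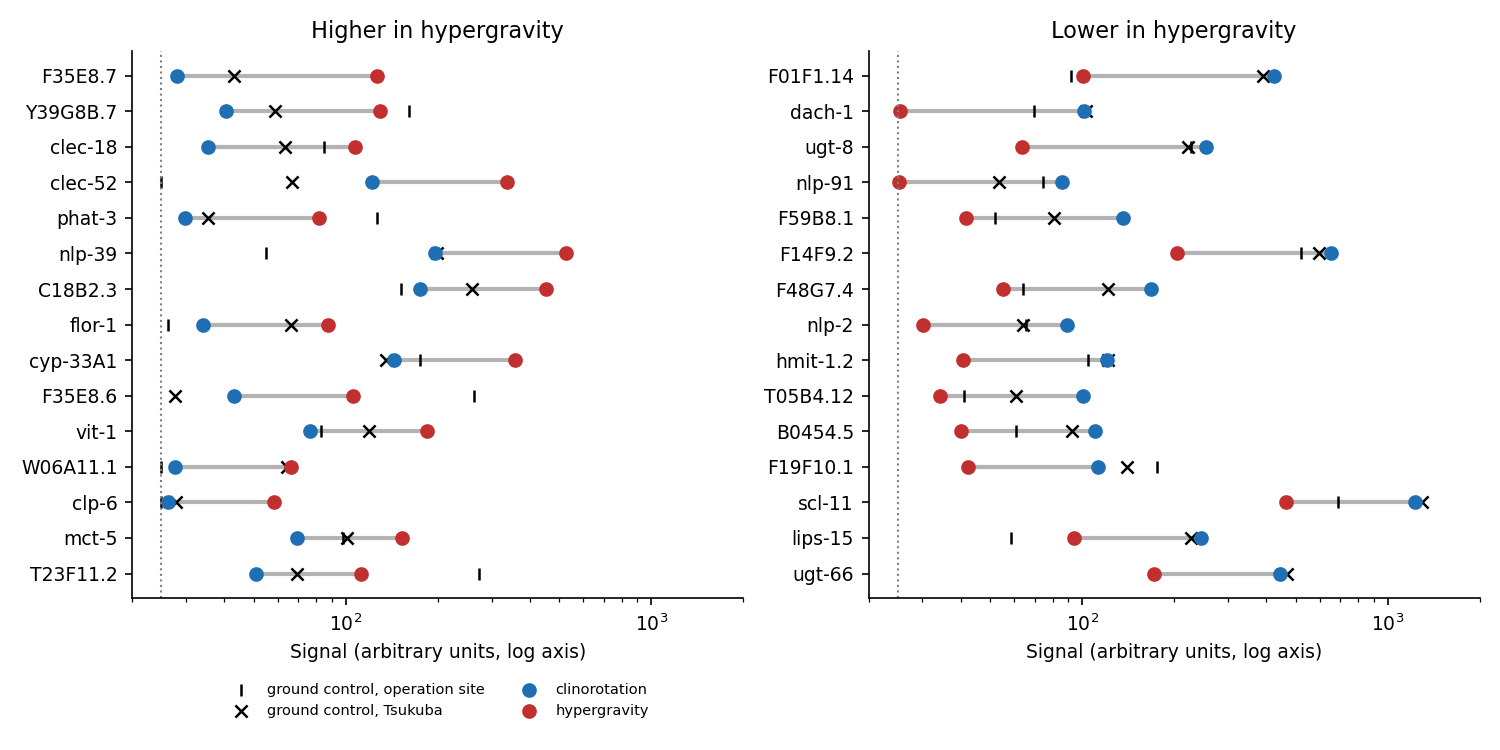
Scaled signals (x axis, arbitrary units, log axis) of the 15 genes per direction with the widest difference among those above the floor on both arrays; the bar joins clinorotation to hypergravity, black marks are the ground controls and the dotted line is the floor at 24.9. For cyp-33A1, C18B2.3, ugt-8 and F14F9.2 hypergravity lies beyond both controls, while for F35E8.6, phat-3 and F01F1.14 it lies between them.

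Several smaller gene-name families read mostly in 1 direction. All 13 pals genes, a family tied to the response to intracellular pathogens, read lower, with a median of -0.48 and 0 by 2-fold. pals-33 read 111 in clinorotation and 55.9 in hypergravity, with 67.8 and 91.5 in the controls and 82.7 in space flight, a difference of -0.99. Hypergravity was the lowest of the 5 arrays for pals-33 and also for pals-29, pals-31 and pals-32. Lower medians were also found for 19 globins (16 lower, 2 higher, -0.43), 11 chitinase-like chil genes (10 lower, -0.37), 9 bZIP factors named zip (8 lower, -0.43) and 9 ABC transporters named pgp (8 lower, -0.32). The globins were dim: glb-10, the member furthest down, read 46.5 in clinorotation and 28.8 in hypergravity. zip-12 read 269 in clinorotation and 132 in hypergravity, with 437 and 261 in the controls and 439.6 in space flight. Of 15 math genes, which carry a MATH domain, 13 read lower with a median of -0.41. The 1 at least 2-fold lower, math-27, is annotated as a pseudogene. Of the 15 math probe sets 7 may bind several transcripts. The nssp, spig, srlf and txt families, to which no role is given here, had medians of -0.27, -0.32, -0.49 and -0.39. Under alternative processing the pals, globin, chil, pgp, math and nssp medians reached 0. Those of zip, spig, srlf and txt stayed below 0. spig-13 read 91.5 in clinorotation and 39.2 in hypergravity, with 72.2 and 57.4 in the controls and 59.1 in space flight. spig-3 read 377 and 171, with 78.5 and 315 in the controls and 55.7 in space flight, so that hypergravity lay between the controls. txt-17 was bright, at 4592 in clinorotation and 2239.9 in hypergravity, with 4038 and 4012 in the controls and 4012 in space flight, a difference of -1.04 with a limma standard error of 0.16.

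The ground controls placed the 163 genes. Of the lower genes, hypergravity alone lay outside the controls in that direction for 49, clinorotation alone lay above both for 13, both held for 50 and neither for 7. Hypergravity lay a median of 0.88 below the operation-site control and 0.98 below the Tsukuba control for these genes, and clinorotation 0.33 and 0.21 above them. Of the 44 higher genes, hypergravity alone lay above both controls for 16, clinorotation alone below both for 12, both held for 13 and neither for 3. Since the rule picked a high and a low array, these places describe the genes and are no test.

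The difference between space flight and the operation-site control uses neither array of the comparison. Of the lower genes, 89 (74.8%) read lower in space flight than in that control, against 45.6% of all 10622 genes, with a median of -0.27. Of the 44 higher genes, 26 (59.1%) read higher in space flight, against 48.2%, with a median of 0.19. Space flight read below that control for 21 of 23 flp genes and 44 of 51 nlp genes, and above it for 11 of 12 oocyte and germ line markers and 19 of 20 replication genes. The pals genes, lower in hypergravity, read above that control in space flight, at a median of 0.29. The yolk side did not recur there: 2 vitellogenins read above that control and 3 below, and 2 adult markers above and 4 below. Of 115 cuticle collagens, whose median between hypergravity and clinorotation was 0.01, 100 read below that control in space flight and 10 above. Across 9976 genes the differences correlated with r = 0.32, and hypergravity minus clinorotation against operation-site minus Tsukuba control with r = 0.09. Between the controls, the operation site read higher for 23 of the higher genes and lower for 21, and higher for 51 of the lower genes and lower for 67, against 50% and 46.2% of all genes. Genes are not independent replicates, the arrays share the scaling, and these values are descriptions.

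Where a gene had another probe set, it mostly read in the same direction. Of the 163 genes, 20 had other probe sets, and 19 of these 22 probe sets were above the floor. Of the 19, 17 read in the same direction and 2 slightly in the other, those of tsct-1 (0.25 beside -1.196) and abts-4 (0.01 beside -1.26). Only those of T22B7.3 (-1.16) and snt-1 were also at least 2-fold apart, and the median in the chosen direction was 0.52. Other probe sets measure the same RNA, so they check the probe set and not the treatment.

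By position, chromosome V held 42 of the lower genes, 2.03% of its 2066 measured genes, against 1.12% over all genes, 1.28% on X, 1.22% on IV, 0.94% on II, 0.65% on III and 0.46% on I. Only 4 pairs of adjacent genes were apart in the same direction, all on chromosome V: F35E8.6 with F35E8.7 on the higher side, and F35F10.6 with F35F10.7, pqn-31 with F21C10.7, and R11D1.3 with R11D1.4 on the lower. No run of 3 was found. Genes with only a sequence name, not a given symbol, made up 34.3% of all measured genes, 56.8% of the higher genes and 43.7% of the lower genes.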

How the data were processed

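RNA was measured on 1-colour Affymetrix arrays, 1 per group, with 2 ground controls. Per the labels' protocols, worms were grown for 10 days at 20 °C and frozen in liquid nitrogen, and 15 µg of total RNA (ISOGEN) went into biotinylated cRNA. The authors deposited intensities, 1 linear signal per probe set, from 0.1 to 13519.3. How probe cells were summarised is not stated in the labels. Precision is limited by the number of arrays and, for dim genes, by the floor.

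Probe sets were named through the platform annotation, which can be old. Of 22548 probe sets 20766 had 1 symbol, 887 several and 895 were not listed, and the last 1782 were left out. Symbols of 17076 of 17118 genes matched the RefSeq table through the Entrez identifier. The probe set with the highest mean log2 signal stood for each of the 2981 genes with several, and 4322 genes rest on probe sets that can bind more than 1 transcript.

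The log2 of the deposited signals was quantile scaled over 5 arrays, floored at the 40th percentile and subtracted. A lower or upper bound was given where 1 signal lay at the floor. limma 3.58.1 in R 4.3.3 (lmFit, eBayes with trend, two-sided, Benjamini-Hochberg) was fitted to all 5 arrays over the 10076 genes with a mean above the floor and was tested on simulated data. Its p-values assume that lone arrays vary like the controls, whose labels do not say whether they are separate cultures. Alternatives changed the scaling, the arrays scaled, the floor, the probe set, the filter and the trend.

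The members and gene lists were chosen with earlier results of these data known. Genes were named by rule: per direction, the 15 widest differences above the floor and 5 at it; up to 4 members of each list or family with 3 genes at least 2-fold apart in 1 direction or a median of at least 0.3 either way; and 7 muscle, sperm and heat shock genes whatever their values. T22B7.3, tsct-1, abts-4, unc-119, tbb-1, vit-2, spe-4, Y48G9A.7 and the adjacent genes were singled out after their values were seen. Of 51 lists 10, of 14 marker lists 4 and of 145 families 20 met the rule, and the near-equal lists are given for contrast. No genome came with the data, so sequences and promoter motifs were not analysed here.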

Additional observations from a re-analysis of the deposited data

Results flagged for a closer look

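Among genes above the floor on at least 1 of the arrays compared, 492 had hypergravity above and clinorotation below both ground controls, and 539 had the reverse. Only 1 gene lay at least 1.5-fold beyond the nearer control on both arrays, in opposite directions. It is Y48G9A.7, which read 70.2 in clinorotation and lay at the floor of 24.9 in hypergravity, with 43.7 in the operation-site control, 39.3 in the Tsukuba control and 62.9 in space flight. The difference, hypergravity minus clinorotation, was -1.49 on the log2 scale. It rests on 1 array a treatment, and limma, with a standard error of 0.39 and an adjusted p of 1, did not call it.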

How the results depend on the processing

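The counts of higher and lower genes depended mainly on the floor. With no floor (lowest signal 1) they were 1434 and 1527, with the floor at the 20th percentile 390 and 475, and with it at the 60th percentile 7 and 44. Without scaling the higher count was 85, of which 44 were the genes reported, and the lower count 95. Trimmed mean scaling gave 42 and 150, and median scaling 54 and 128. Leaving out 1 ground control from the scaling gave 46 to 47 higher and 121 to 129 lower. limma called 0 genes under every alternative but 1: with all 17118 genes and no filter it called 359, of which 351 lay at the floor in both controls and so had no spread there. Of 63 named genes at least 2-fold apart and 34 list medians, 0 changed sign. At the 60th percentile floor 13 list medians and 45 named genes were at 0. The ugt, clec, pals, globin, chil, pgp, math, nssp, gpa, dmsr, cdk, msp and cuticle collagen medians reached 0 under at least 1 alternative. Signs turned for hsp-16.2 (0.22 unscaled, 0.10 by trimmed mean, 0.15 by median), hsp-16.41 (0.15, 0.028 and 0.070), hsp-70 (0.017 unscaled) and unc-15 (0.061 unscaled, 0.021 without probe sets that may bind several transcripts), all close to 0 as reported. The msp median ran from 0.00 to 0.73, at 0 without those probe sets, on which the whole family rests. No paired analysis was possible because each treatment has 1 array. Signals near the floor limit the dim genes, where the size rule finds most of its genes.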
